A study of Mus musculus with 2 samples.

Results

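The TRIM family was followed in mouse liver through every probe set whose annotation held a single gene symbol made of Trim and a digit. Of 34958 probe sets with 1 symbol on the array, 111 met this rule and read 58 of 18194 genes. Members were chosen by name, and were then split into 11 genes known from general knowledge to be induced by interferon and 47 others. The samples were livers of ICR mice, an outbred stock, 13 weeks old. The control group ate the basal diet CRF-1. The diosgenin group ate that diet with diosgenin, a steroidal sapogenin from plants, at 500 ppm, starting at 9 weeks of age and lasting 4 weeks. For each diet, RNA of 3 mice was pooled and hybridised to 1 Affymetrix array, with 3 mice to a cage and no statement of whether a diet was 1 cage. No genotype, allele or other agent is named for either group. Because there was 1 array per diet, no difference below has an error, an interval or a test. Higher and lower always mean the diosgenin array against the control array. In whole liver, fewer cells of a type and less RNA per cell cannot be told apart.

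TRIM proteins carry a tripartite motif of a RING finger, B-box zinc fingers and a coiled coil, and most act as E3 ubiquitin ligases. Their C-terminal domain sets the class: a PRY-SPRY domain in the largest class, NHL repeats, a COS box, or the PHD finger and bromodomain of the TIF1 group of transcriptional regulators. Several PRY-SPRY members are induced by interferon and restrict viruses or tune the signalling of the innate receptors that detect them.

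The arrays hold no detection calls, so a signal was judged by a pair of marks. The floor of 10.7 was the 40th percentile of all signals, and the filter of 28.4 was the 60th percentile of the mean signals of all probe sets. Where a gene had several probe sets, the brightest by mean signal stood for it. The arrays shared a 2% trimmed mean of 96.9, and 9732 genes passed the filter. The 6 measured hepatocyte markers all passed, with signals summing to 39765 for the control pool and 37952 for the diosgenin pool. All 39 odorant receptor genes, which liver should lack, stayed under the filter, and the brightest of them had a mean signal of 21.2.

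Liver gave a signal above the filter for 25 of the 58 TRIM genes, 43.1%, against 53.5% of all genes. A further 18 lay under the filter with at least 1 array at or above the floor, and 15 were under the floor on both arrays. The share above the filter differed between classes in description. It was 7 of 11 among interferon-induced members, 3 of 4 in the TIF1 group, 3 of 4 in the NHL group and 7 of 19 among the other PRY-SPRY members. In the mixed class with another domain or none it was 5 of 14. None of the 6 COS box genes passed. That class holds Trim54 and Trim63, the latter a ubiquitin ligase of muscle atrophy, and Trim9, Trim36, Trim46 and Trim67.

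Members restricted to other tissues were at or near the floor. Trim63 had signals of 0.54 and 0.353 in the control and diosgenin pools, Trim54 had 1.23 and 1.96, and Trim72, a membrane repair protein of muscle, had 2.65 and 1.69. Trim71, a factor of stem cells, was at 1.09 and 7.32, and Trim10, known from red cell development, at 2.79 and 8.97. Values this low have no order. Of the 33 members under the filter, 28 had a mean signal no higher than that of the brightest odorant receptor gene. The other 5 were Trim13, Trim30a, Trim47, Trim62 and Trim65. Nearest to the filter from below were Trim65 with a mean signal of 27.0, Trim13 with 26.1 and Trim30a with 25.9. Nearest from above were Trim34a with 28.43, against the filter at 28.38, and Trim16 with 29.3.

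**Figure D1:**
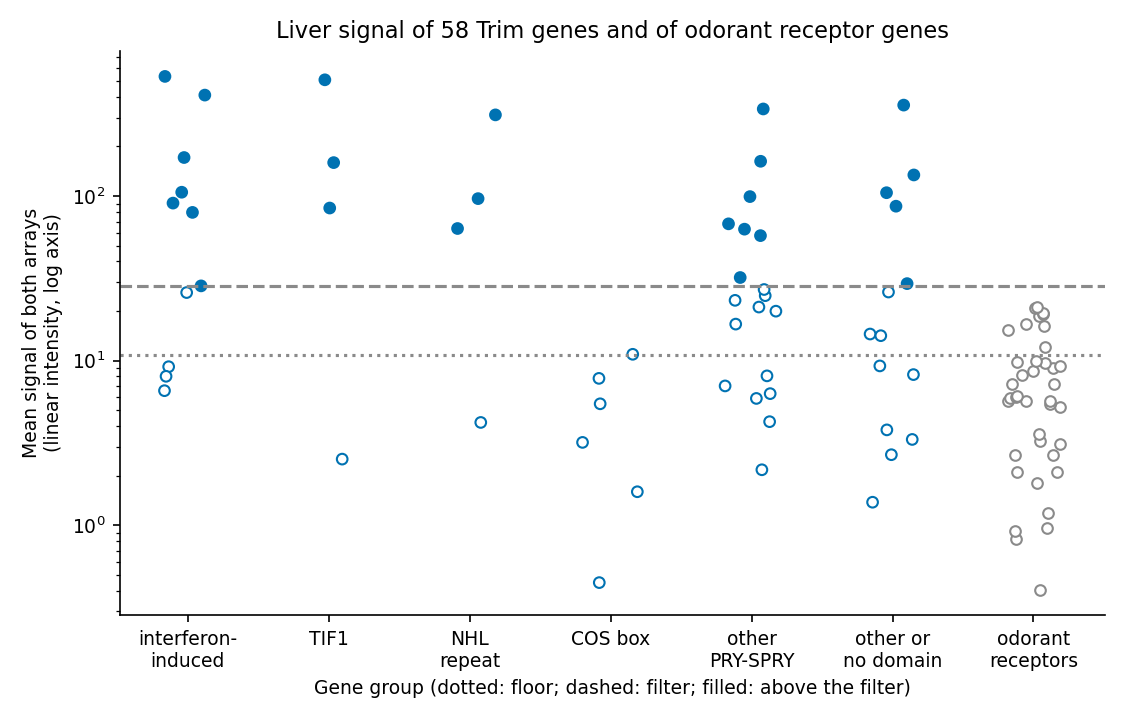
Mean deposited signal of both arrays (linear intensity on a log axis) for each of the 58 TRIM genes by class and for 39 odorant receptor genes; each point is 1 gene, filled where it passes the filter of 28.4, and points are spread sideways at random. In the COS box class none of 6 genes passes, and no odorant receptor gene passes.

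The interferon-induced members were examined first in their promoters, since the element that interferon-activated factors bind has a known core. The core GAAA, any 2 bases and GAAA again was searched on both strands in RefSeq promoter windows of GRCm38.p6, from 250 bases before to 50 bases after a transcript start. Windows matched 47 of the 58 members by symbol, and 10 of the 11 interferon-induced ones. Of these 10 genes, 8 held the core, 80%. Trim30b, Trim30c and Trim34b, on the list but without a probe set of their own, had windows without the core. With them the share was 8 of 13 genes, 61.5%. The core was in 1 of 37 other members, 2.7%, that gene being Trim2, and in 1079 of 27025 genes in the table, 3.99%. The interferon-induced list came from knowledge of such genes, so these shares are a description of the list. The windows of Trim25 and Trim56 did not hold these letters. The 30 bases around the core are given for the 8 interferon-induced members with a match, 1 window each, because they show which genes share it, with the core in capitals, 5′ to 3′ on the strand of the gene. In Trim21 and Trim26 a second match overlaps the first and runs on into the small letters.
Trim34a, chr7:104244457-104244486, plus strand: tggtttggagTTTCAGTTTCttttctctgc
Trim5, chr7:104288136-104288165, minus strand: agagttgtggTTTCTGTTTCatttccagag
Trim12a, chr7:104315466-104315495, minus strand: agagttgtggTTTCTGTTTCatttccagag
Trim12c, chr7:104353359-104353388, minus strand: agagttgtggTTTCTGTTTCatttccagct
Trim30a, chr7:104465210-104465239, minus strand: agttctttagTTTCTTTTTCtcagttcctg
Trim30d, chr7:104507871-104507900, minus strand: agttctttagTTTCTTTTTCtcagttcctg
Trim21, chr7:102565450-102565479, minus strand: cctctgagagGAAACTGAAAgtgaaatttg
Trim26, chr17:36836976-36837005, plus strand: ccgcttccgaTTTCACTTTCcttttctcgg

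Trim5, Trim12a and Trim12c carry the same core. Aligned on it without gaps, the windows of Trim5 and Trim12a were identical at 241 of 241 bases. The Trim30d window and the Trim30a window shown were identical at 276 of 295 bases. In Trim34a and Trim12a the core begins at base 11 after the annotated start, and in Trim12c it begins 29 bases before it. These genes stand in a row on chromosome 7. From Trim6 to Trim30d the RefSeq table lists 11 protein-coding genes, of which 10 are TRIM genes and 7 are members measured here. Only Trim34a and Trim12c of those 7 passed the filter, and they were the only TRIM genes above the filter past 1.5-fold in either direction. For these 2 genes the 200 bases from 170 before the start to 30 after it are printed, again with the core in capitals.
Trim34a, GRCm38.p6 chr7:104244287-104244486, plus strand: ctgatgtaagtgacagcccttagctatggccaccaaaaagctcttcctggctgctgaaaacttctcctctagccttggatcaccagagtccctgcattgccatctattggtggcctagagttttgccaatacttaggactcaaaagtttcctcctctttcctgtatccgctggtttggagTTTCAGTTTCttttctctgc
Trim12c, GRCm38.p6 chr7:104353320-104353519, minus strand: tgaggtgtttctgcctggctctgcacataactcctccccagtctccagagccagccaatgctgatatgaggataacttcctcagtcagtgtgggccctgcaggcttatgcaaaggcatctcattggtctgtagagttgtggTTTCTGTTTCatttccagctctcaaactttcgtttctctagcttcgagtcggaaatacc

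Trim34a, a relative of the human retroviral restriction factor TRIM5, gave 11.7 for the control pool and 45.2 for the diosgenin pool, a 3.86-fold higher signal. The control signal was just over the floor and the gene passed the filter only through the diosgenin array. Trim12c, of the same branch, had 129 and 52.0, 2.48-fold lower, with both signals above the filter. These members of the same gene row, which have other TRIM genes between them, had ratios of opposite sign. By the 1.5-fold mark, 1 of 25 members was higher, where 2.84% of all genes above the filter were, and 1 was lower, where 3.61% were. The same 2 genes were the ones past 2-fold, where the shares of all genes were 0.555% higher and 0.853% lower. The members' shares are counts of 1 gene each. The other 23 members were within 1.5-fold, and nearest to that mark were Trim14 at 1.47-fold, Trim41 at 1.41-fold and Trim56 at 1.35-fold lower.

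The spread of ratios depends on signal, so each of the 2 genes was set beside the block of 2433 genes, ordered by brightness, that held it. Among the 2433 dimmest genes above the filter, with mean signals of 28.4 to 68.0, the central 95% of log2 ratios ran from −0.95 to 0.83, and 10 genes, Trim34a included, were at least as far from 0 as its 1.95. Among the next 2433, up to a mean signal of 151, the range was −0.63 to 0.62, and 9 genes, Trim12c included, were at least as far from 0 as its −1.31. Trim34a had entered the comparison only through its diosgenin signal, and its control signal was within the range of the odorant receptor genes. With a mean signal of 28.43, Trim34a lay at the dim end of its block. Most of the block was brighter, so the count of 10 does not describe genes at its own signal.

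**Figure D2:**
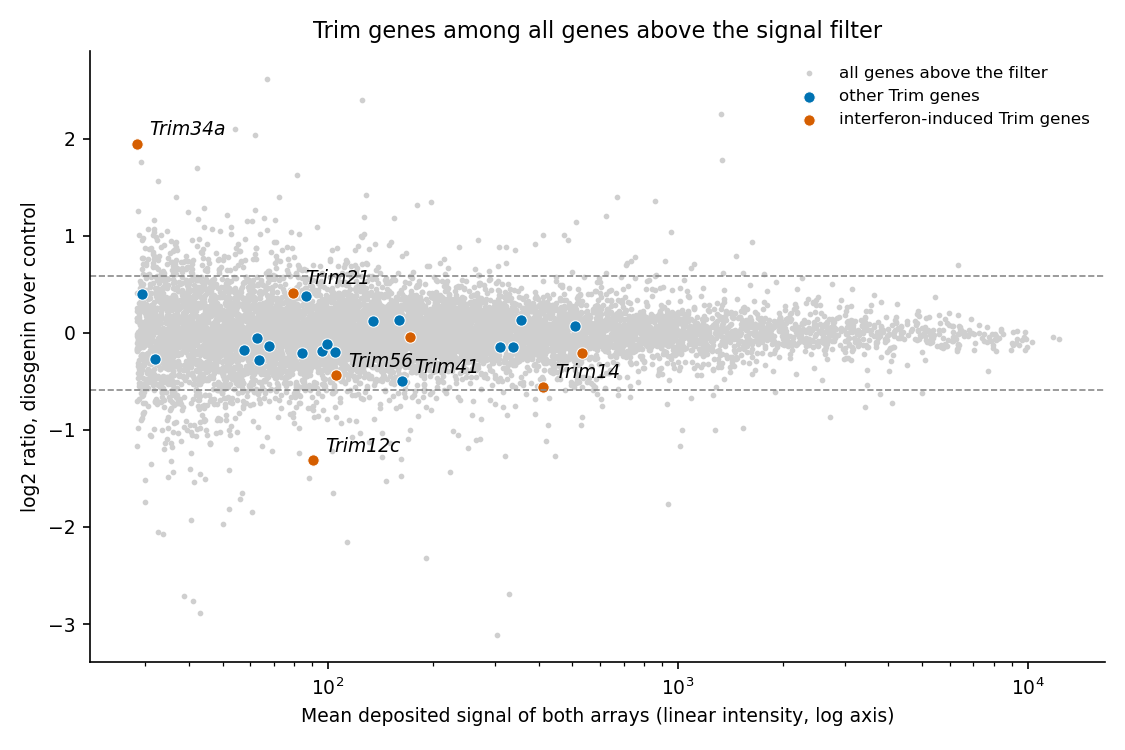
log2 ratio of diosgenin over control against the mean deposited signal of both arrays (linear intensity on a log axis) for all 9732 genes above the filter (grey), interferon-induced TRIM genes (orange) and other TRIM genes (blue); dashed lines mark 1.5-fold. Trim34a at 1.95 and Trim12c at −1.31 lie outside the lines, and the other 23 TRIM genes lie between them.

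No other probe set gave a ratio as large as either, and all of them were under the filter. The second Trim34a probe set had signals of 13.4 and 15.99, a log2 ratio of 0.25, and was under the filter. A probe set that the annotation assigns to Trim34a and Trim34b together, left out of the gene values, had 17.5 and 33.5. Its log2 ratio was 0.94, in the direction of the first Trim34a probe set. Another such shared probe set had 10.8 and 9.22. The probe set that gave the 3.86-fold value ends in _a_at, a suffix for probe sets that read several transcripts of a gene. The second Trim12c probe set had 9.71 and 12.7, near the floor, with a log2 ratio of 0.25, opposite to the first. With the floor raised to the 60th percentile, 28.5, the log2 ratio of Trim34a was 0.67, and that of Trim12c stayed at −1.31.

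Trim14, a mitochondrial adaptor of antiviral signalling that lacks the RING finger, gave 489 for the control pool and 333 for the diosgenin pool, a log2 ratio of −0.55. It is bright, and 69 of the 2433 brightest genes, itself included, were at least as far from 0. Its second probe set was under the floor on both arrays. Trim56, linked to innate sensing of nucleic acids, had 121 and 89.6, a log2 ratio of −0.44, from 1 probe set.

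Trim25, the ligase best known for activating the RNA sensor RIG-I, had 572 and 495. Its 3 probe sets were alike, with log2 ratios of −0.21, −0.22 and −0.25. These are smaller than 0.28, the standard deviation within genes over all genes with several probe sets. That value describes disagreement between probe sets and does not measure variation between pools. Trim21, the cytosolic antibody receptor, had 68.2 and 90.9, a log2 ratio of 0.41, and 51.9 and 57.7 by its second probe set, a ratio of 0.15. Trim26, a gene of the major histocompatibility region, had 174 and 169 by the brighter probe set and 53.2 and 73.9 by the other. Its log2 ratios were −0.047 and 0.47, so the probe sets of Trim26 disagreed in sign.

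The remaining interferon-induced members were under the filter. Trim30a, which dampens signalling from Toll-like receptors, had 27.8 and 24.0 by one probe set and 24.8 and 26.9 by the other, with log2 ratios of −0.22 and 0.12. Trim5, Trim12a and Trim30d were under the floor in the control pool, at 0.823, 1.36 and 1.03, and slightly over it in the diosgenin pool, at 15.2, 11.8 and 17.3. Against the floor these are higher by at least 1.42-fold, 1.09-fold and 1.61-fold, at signals within the range of the odorant receptor genes. Trim34b and Trim30b were read only by probe sets shared with another gene.

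**Figure D3:**
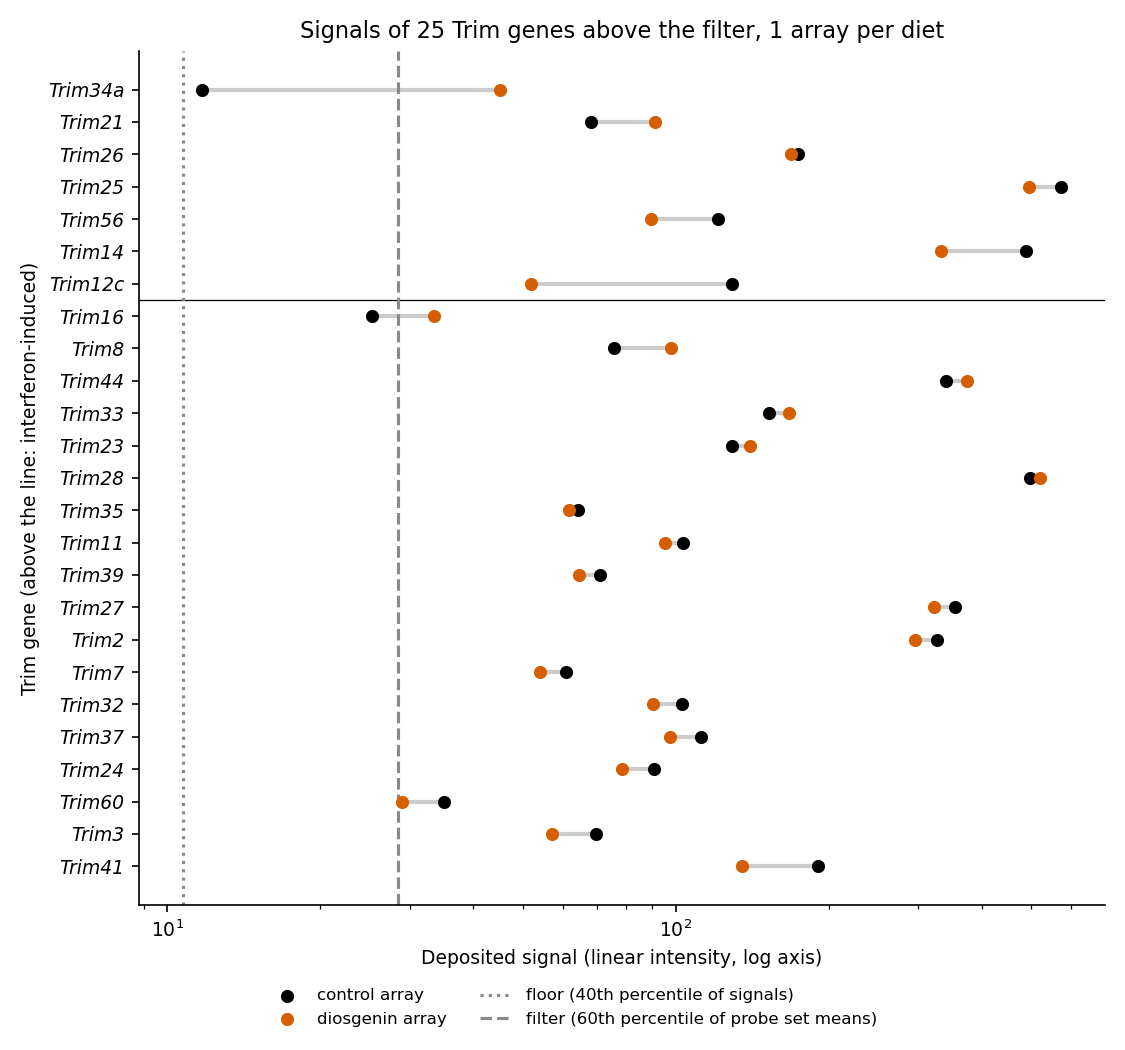
Deposited signal on the control array (black) and the diosgenin array (orange), linear intensity on a log axis, for the 25 TRIM genes above the filter, with 7 interferon-induced genes above the horizontal line and 18 others under it, each ordered by log2 ratio. The dotted line is the floor and the dashed line the filter; Trim34a starts at 11.7, near the floor, and Trim12c goes from 129 to 52.0.

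The 7 interferon-induced members that passed split into 2 higher and 5 lower. Their median log2 ratio was −0.21, beside −0.0053 over all genes that passed, of which 49% were higher and 51% lower. With a wider list of interferon-induced members, 8 of which passed, the median was −0.13, beside −0.14 for the other members. Other genes of the interferon response were set beside them. Of 48 listed genes without a Trim symbol, 45 were measured and 34 passed. Among these 25 were higher and 9 lower, and the median was 0.17. By at least 1.5-fold, 8 were higher and 0 lower, where the shares of all genes were 2.84% and 3.61%. The list was chosen with earlier results of these data known, so these counts only describe the list. Of the 8, Gbp2 and Usp18 passed the filter only through the diosgenin array, with control signals of 25.8 and 26.3. The same filter left out Oas2, lower at 29.7 and 14.9. It also left out Oasl2, Zbp1, Cxcl10 and Gbp3, each higher by at least 1.5-fold, with Oasl2 at 9.86 and 26.3. The chemokine Cxcl9 had signals of 39.9 and 105, a log2 ratio of 1.40. The guanylate-binding protein Gbp2 had a ratio of 1.28, Xaf1 one of 1.15, the class I transactivator Nlrc5 one of 1.07 and the ISG15 protease Usp18 one of 0.86. At the low end were Isg20 at −0.34, the antiviral protein Rsad2 at −0.30 and Ifi35 at −0.19. The difference between the lists was not tested, and both come from the same pair of pools.

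Markers of other liver cells were set beside these values, with 49% of all genes higher and 51% lower. All 10 macrophage markers passed the filter. Their signals summed to 2739 and 3055, 8 being higher and 2 lower, and Marco, a scavenger receptor, had 13.3 and 45.1. Marco passed the filter only through the diosgenin array and was the only macrophage marker past 1.5-fold. Of 6 endothelial markers 5 were lower, with sums of 1428 and 1047. Clec4g, at 745 and 464, had the largest difference and was the only endothelial marker past 1.5-fold. Of 5 stellate cell markers that passed 4 were higher, with sums over all 6 of 1705 and 2114. The filter left out the remaining stellate cell marker, Col1a1, lower at 31.3 and 17.2. Of 4 biliary markers 1 passed, Sox9 at 42.01 and 26.1, and the sums were 106 and 58.1. Among 5 T cell markers 1 passed the filter, Cd8a at 31.2 and 31.1. The T cell sums were 53.4 and 71.1, and Cd3d and Cd3g were under the floor on both arrays. No neutrophil or dendritic cell marker passed, of 3 and 5 measured, with sums of 57.3 and 45.2 and of 75.8 and 57.7. For T cells, neutrophils and dendritic cells most markers were under the filter, so their sums give no direction. The part of these cells in the TRIM ratios was not tested.

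**Figure D4:**
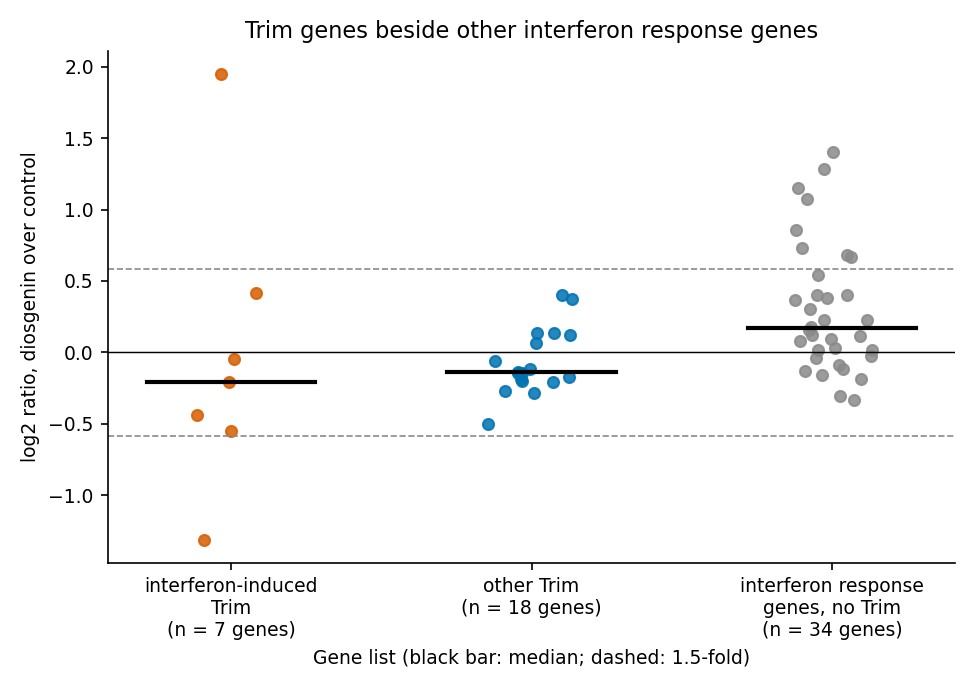
log2 ratio of diosgenin over control for genes above the filter in 3 lists: 7 interferon-induced TRIM genes, 18 other TRIM genes and 34 other interferon response genes; each point is 1 gene, the black bar is the list median and dashed lines mark 1.5-fold. The medians are −0.21, −0.14 and 0.17.

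The 18 other members that passed split into 6 higher and 12 lower. Their log2 ratios ran from −0.50 to 0.40, with a median of −0.14. None reached 1.5-fold. The 7 members listed in the PRY-SPRY class were lower, from −0.50 to −0.057, where 51% of all genes were lower. Their median was −0.14. Trim16, which also carries that domain but was listed in the mixed class, was higher. Interferon-induced members, several of which carry it too, were kept out of this class, and those that passed split into 2 higher and 5 lower. Trim41, a ligase that targets protein kinase C, had 191 and 135, but its second probe set had 47.8 and 48.9, so only the first was lower. Trim60 had log2 ratio −0.27. Trim7, a partner of glycogenin, the primer of glycogen synthesis, had 60.9 and 54.0, a log2 ratio of −0.17. Trim27, a repressor first found as a fusion oncogene, had 355 and 322, and its 3 probe sets above the filter ran from −0.22 to −0.13. Apart from Trim41, each of these ratios is under 0.28 in size.

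The TIF1 group regulates transcription and chromatin. Trim28, the corepressor that KRAB zinc finger proteins recruit to silence transposable elements, had 497 and 520, with log2 ratios of 0.065 and 0.11 in its 2 probe sets. Trim33, a regulator of TGF-β and SMAD signalling, had 152 and 167, with ratios of 0.13 and 0.30. Trim24, a nuclear receptor coregulator whose loss leads to liver tumours in mice, had 90.6 and 78.5, a ratio of −0.21. A dimmer Trim24 probe set under the filter had 31.5 and 15.5. Of 7 partners of Trim28 in silencing, 6 passed the filter, 3 higher and 3 lower, with a median of −0.025. The heterochromatin protein Cbx5 was the lowest, at 88.3 and 66.2, a ratio of −0.42.

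The 3 NHL members above the filter were lower. Trim3 had 69.7 and 57.2, a log2 ratio of −0.28, and Trim32, a ligase mutated in a limb-girdle muscular dystrophy, had 103 and 90.2, a ratio of −0.19. Trim2, known for targeting neurofilament light chain, had 327 and 296, a ratio of −0.15. Its 5 probe sets above the filter ran from −0.39 to 0.075, on both sides of 0.

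In the mixed class 4 of 5 were higher, where 49% of all genes were, and the median was 0.14. One of the 4, Trim16, passed the filter only through the diosgenin array. Trim8, a regulator of cytokine signalling, had 75.5 and 97.9, a log2 ratio of 0.37, and a second probe set gave 0.60. Its remaining one, under the filter, gave −0.51. Trim16, which lacks a RING finger and takes part in autophagy of damaged endomembranes, had 25.3 and 33.4, a ratio of 0.40. Trim23, which carries an ARF domain, had 129 and 140, with ratios of 0.12 and 0.44. Trim44 had 340 and 374, a ratio of 0.14, and its second probe set above the filter had 43.1 and 41.5, a ratio of −0.057. Trim37, a ligase of centriole control, was the lower one at 112 and 97.4, and its 4 probe sets above the filter ran from −0.20 to 0.094.

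Within genes, probe sets gave the only repeat measurement. In 12 members with several probe sets above the filter, 12 of 19 other probe sets had the sign of the representing one, 63.2%, beside 61.8% over all such genes. The standard deviation of log2 ratios within a gene was 0.18 in the family and 0.28 over all genes. Direction also went with the type of probe set. Of the 12 members represented by a probe set ending in _a_at, _s_at or _x_at, which read several transcripts of a gene or of related genes, 10 were lower. Of the 13 represented by other probe sets, 7 were lower. Over all genes the shares lower were 53.2% and 50.1%. With the first kind left out, 16 members passed the filter and their median log2 ratio was 0.032.

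**Figure D5:**
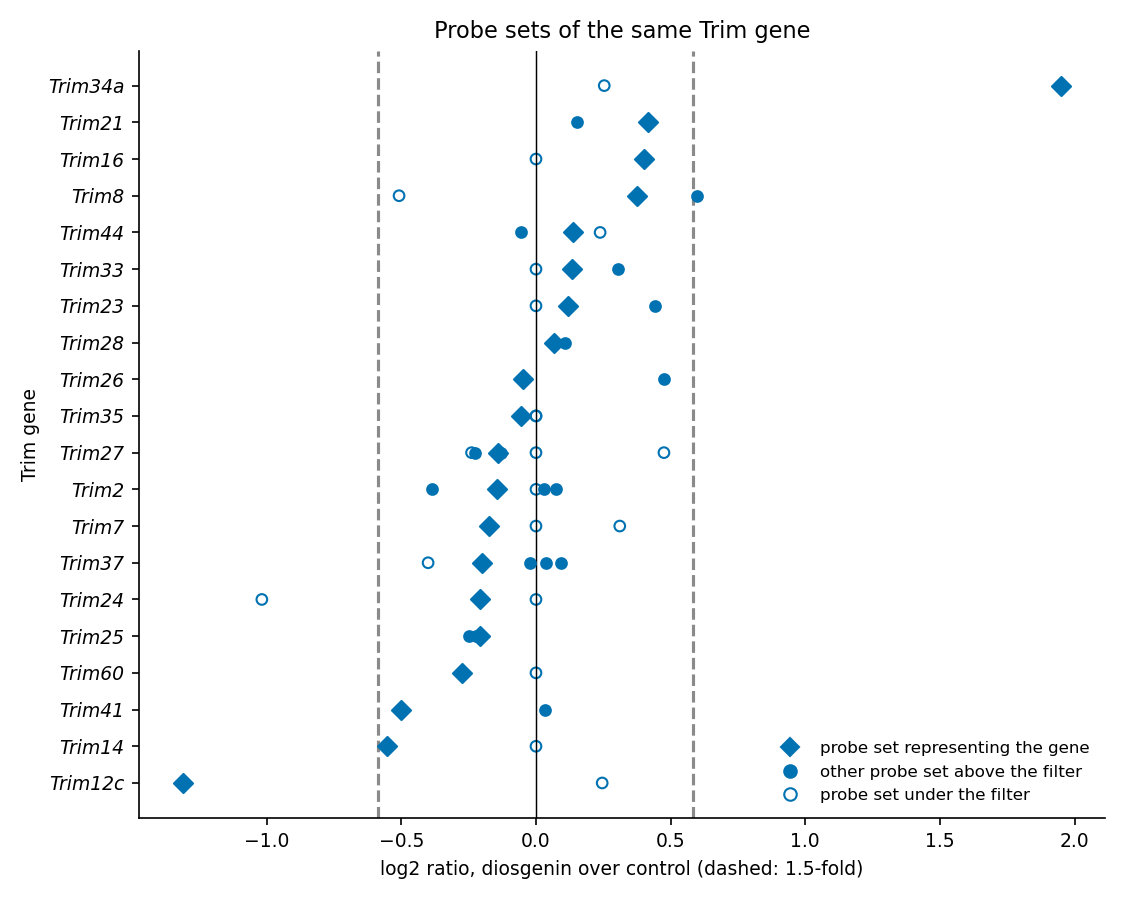
log2 ratio of diosgenin over control for every probe set of the TRIM genes above the filter that have several; a diamond is the probe set that represents the gene, a filled circle another probe set above the filter and an open circle one under it, and dashed lines mark 1.5-fold. The open circles of Trim34a and Trim12c, at 0.25 each, lie far from their diamonds.

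TRIM relatives under other names and genes that TRIM ligases work with were taken from lists. The lists were chosen with earlier results of these data known. Among these genes none that passed the filter reached 1.5-fold. Pml, the tripartite motif protein of nuclear bodies, had 43.2 and 49.2, a log2 ratio of 0.19, and Mid2 had 42.9 and 43.5. Mefv and Mid1 were under the filter. All 8 ubiquitin-conjugating enzymes listed passed, from −0.081 to 0.19. Of 4 genes in the RIG-I arm served by Trim25, 2 were higher and 2 lower, where the receptor Ddx58 had 124 and 125 and its adaptor Mavs 568 and 533. Of 4 autophagy partners 2 were higher and 2 lower, and the kinase Ulk1 was the highest, at 259 and 368, a ratio of 0.51.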

How the data were processed

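Arrays of 1 control and 1 diosgenin liver pool were compared. The deposited values are array intensities on a linear scale, and GCOS is named in the submitters' processing notes. Its version, the summary algorithm and the scaling target are not given in the sources used. Gene names came from the platform annotation. All 58 TRIM symbols were found in the RefSeq table of GRCm38.p6, used for names, gene order and promoter windows. Signals under the floor were set to it before log2 was taken. Counts and medians cover genes above the filter, and the alternatives were other floors and filters, a pseudocount of 16, other choices of probe set and other scalings. Steps ran in Python 3.11.15 with pandas 2.3.3 and were checked on simulated data. Members and lists were chosen with earlier results of these data known. Genes were named by rule: every interferon-induced member, those past 1.5-fold, the nearest to that mark, up to 4 per class, and the ends of the other lists. Members under the filter, Trim23, Marco, other markers and partners of TRIM proteins were named after their values were seen. The number of arrays limits the precision.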

Additional observations from a re-analysis of the deposited data

Results flagged for a closer look

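A probe set that the annotation assigns to Trim34b and Trim34a together was outside the gene values and had a signal 1.91-fold higher on the diosgenin array, at 17.5 and 33.5. Both genes are in the chromosome 7 row, and this probe set cannot be credited to either of them.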

How the results depend on the processing

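Of 231 values of single TRIM genes under other settings, 228 moved by less than 0.28, the spread between probe sets of a gene, and 5 had the other sign. Many of the 231 could not move, since another filter or a lower floor left the ratio of a gene that stayed in unchanged. Genes that dropped out under a setting were not counted. The 3 that moved were Trim34a, at 0.67 with a floor at the 60th percentile and 1.14 with a pseudocount of 16, and Trim41, at 0.035 without shared probe sets. The count of genes at least 2-fold higher was 0 with that floor. With the filter at the 75th percentile, with both arrays required to pass, or without shared probe sets, 0 genes were higher by 1.5-fold or 2-fold, since Trim34a no longer passed. The count lower stayed at 1 throughout. Without a filter all 58 genes entered, 3 were at least 1.5-fold higher (Trim34a, Trim62 and Trim30d), and the medians were 0 for all members, −0.047 for interferon-induced ones and 0 for the others. The median of interferon-induced members was −0.44 with the filter at the 75th percentile and −0.32 with both arrays required. With the wider interferon-induced list it was −0.13, beside −0.14 for the others. Without shared probe sets 16 genes passed, and the medians were 0.032 for all members, −0.55 for 3 interferon-induced ones and 0.035 for the others. Centring and quantile normalization left all counts the same. No paired analysis was possible because each diet had 1 array, and no array could be left out. Signals near the floor limit Trim34a most.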

Other observations

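Trim62, a PRY-SPRY member under the filter, had signals of 16.6 and 32.9 by its brightest probe set, 1.98-fold higher. Its other probe sets were at 7.33 and 6.70 and at 1.70 and 12.1. Of 8 TRIM genes under the filter with 1 array under the floor, 6 had the diosgenin array as the higher one, where 51.8% of 1642 such genes over the whole array did.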
